A study of Drosophila melanogaster with 62 samples.

Results

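The 174 genes described here are all rows of the authors' deposited comparison of elav-nFne mutant embryos with wild-type embryos at 14-16 h, out of 415 genes that appear in any comparison of the series. Each row gives a gene, a stretch near the 3′ end of its transcript (the listed segments) and the change in how much of the gene's RNA covered that stretch. The rows were not chosen on these libraries. All 174 come from the authors' list of 185 genes with lower segment use in elav mutants of another experiment (experiment 1 below), so a member was already known to lose its listed segment when ELAV was missing. The 11 genes of that list that are not members are not analysed here.

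Stranded libraries were made from poly(A) RNA of pooled male embryos of Drosophila melanogaster. Experiment 2 comprised 3 libraries each of elav-nFne mutants, nFne mutants and wild type at 14-16 h (early), and 3 of each at 18-22 h (late). Experiment 1, set beside it below, had 3 libraries each of elav-fne-rbp9 triple mutants, elav-fne double mutants, elav mutants, fne mutants and wild type at 14-16 h, and 2 libraries came from heads of wild-type adult males. The labels name the genes and describe neither the alleles nor the control strain. The name nFne, as far as the study is known, stands for a nuclear form of FNE that is made when ELAV is missing, and the comparison asks what remains of neuronal 3′ end choice when both ELAV and this form are lost. Animals were pooled and whole embryos were used, so every value averages neurons with all other cells. The embryo files hold no expression levels, and the neuronal share of a library could not be checked against marker genes.

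ELAV, FNE and RBP9 are paralogous RNA-binding proteins of neurons. Many Drosophila genes carry several cleavage and polyadenylation sites in the 3′ UTR, and neurons tend to skip the site nearest the stop codon and use a distal one, which adds an extension to the 3′ UTR. ELAV is known to bind near proximal sites and to promote this skipping, and the extensions can carry binding sites for microRNAs and RNA-binding proteins that act on translation, stability or localisation of the mRNA.

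In elav-nFne early embryos the listed segments were used less in nearly the whole set. Segment use was lower in elav-nFne mutants than in wild type for 142 of the 174 genes at an adjusted p under 0.05 in the authors' deposited table (81.6%), and higher for 0 (0%). A further 31 had a fold that did not pass, and 1 had none. The median log2 fold of segment use, elav-nFne over wild type, was -1.84 in the authors' deposited table, with quartiles of -2.79 and -1.32, so that at the median gene the segment was used at 27.8% of its wild-type level. The fold was negative for 172 of 173 genes, at -1 or lower for 149, at -2 or lower for 74, at -3 or lower for 37 and at -4 or lower for 12. In bulk RNA, fewer neurons per embryo and less extended transcript per neuron cannot be told apart.

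These values are the authors' own comparisons. No value per library was used, so the spread between the 3 elav-nFne libraries and between the 3 wild-type libraries enters only through the authors' adjusted p, and no SD is given. Nothing in the labels says that the replicates came from separate crosses or collections, and the p-values may then measure a technical spread. The mean normalised count at the listed segments, the depth behind each fold, had a median of 80.6 and quartiles of 42.2 and 190.5 over the 174 genes in the authors' deposited table. The files used here give no library totals.

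**Figure D1:**
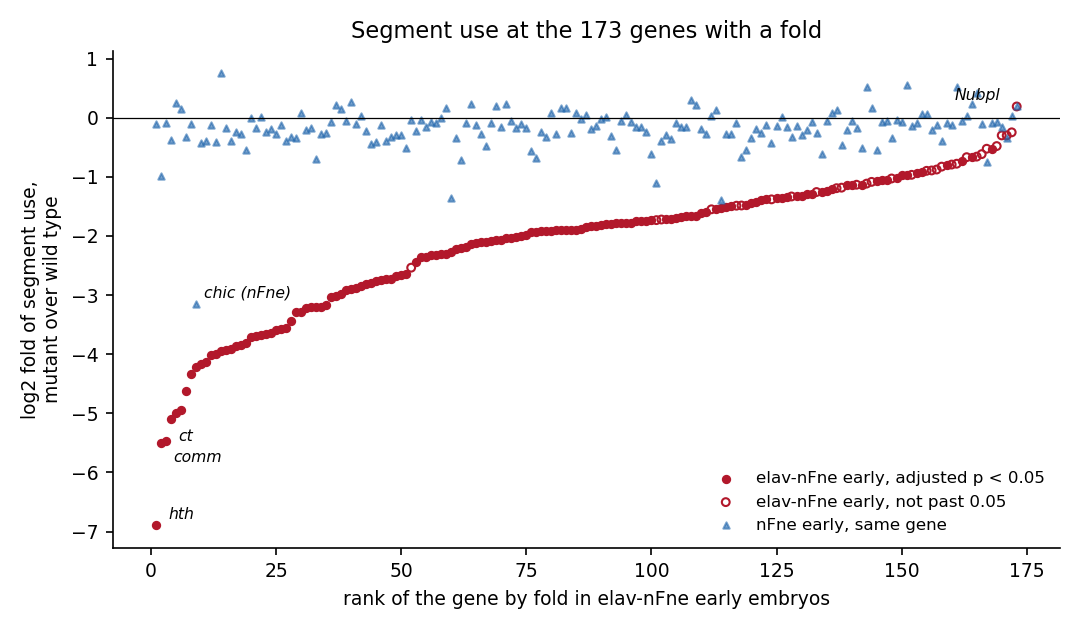
Log2 fold of segment use (vertical axis), mutant over wild type, for the 173 genes with a fold, ordered by their fold in elav-nFne early embryos (horizontal axis). Filled red circles passed the authors' adjusted p of 0.05 in elav-nFne early embryos, open red circles did not, and blue triangles give nFne early embryos for the same gene. The elav-nFne folds run from -6.89 at hth to 0.19 at Nubpl, while most triangles lie near 0 and that of chic lies at -3.15.

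Few of the same segments changed in nFne embryos of the same stage. In the authors' deposited table for nFne early embryos, the median log2 fold over the 173 genes was -0.15, 5 genes were lower past an adjusted p of 0.05 (2.87%) and 2 were higher (1.15%). Of these 2, HIP-R had a fold of only 0.03. Both comparisons use the same 3 wild-type libraries, so their folds are given side by side and no relation between them is drawn. The 37 genes at -3 or lower in elav-nFne embryos had a median fold of -0.23 in nFne embryos in the authors' deposited tables, and 32 of these 37 lay within 0.5 of 0. So did 124 of the 142 genes that passed in elav-nFne embryos and 26 of the 32 that did not. The count therefore does not set the 37 apart. The mean normalised count, which averages mutant and wild-type libraries, was lower in the elav-nFne than in the nFne comparison at all 173 genes with a count, with a median ratio of 0.605. The plot of folds by rank shows both sets of values for each gene.

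The genes of the family were themselves among the affected. elav, on the X chromosome, had its listed segment at X:509880-513105 (dm6, minus strand, 3226 bases of annotated 3′ UTR). Its log2 fold was -3.66 in elav-nFne early embryos (the authors' deposited table, adjusted p = 5.39e-48), -0.24 in nFne early embryos (adjusted p = 0.651), and -2.68 in elav early embryos of experiment 1. The entry of fne, also X-linked, joined 4 segments over X:12946693-12950417 on the plus strand. In the authors' deposited tables its fold was -5.10 in elav-nFne early embryos (adjusted p = 2.59e-64), -0.37 in nFne early embryos (adjusted p = 0.00751) and -4.13 in elav early embryos. Rbp9, the paralog that the label of these mutants does not name, is not among the 174 genes. The labels do not place the lesions within elav and fne, so these 3′ segments are no check of the alleles.

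The 12 genes with the lowest folds past the threshold include regulators of development, of translation and of the cytoskeleton. hth, which encodes the homeodomain protein Homothorax, a cofactor of Hox proteins, was lowest. Its segment at 3R:10507561-10509846 (minus strand, 2286 bases, all annotated 3′ UTR) had a log2 fold of -6.89 in elav-nFne early embryos in the authors' deposited table (adjusted p = 2.00e-41), or 0.842% of the wild-type level of use. The fold of hth in nFne early embryos was -0.11 in the authors' deposited table, not past the threshold.

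comm, which encodes Commissureless, a regulator of axon crossing at the midline, had a fold of -5.51 at 3L:15721511-15722327 in the authors' deposited table (adjusted p = 0.00567), on a mean normalised count of 8.71. ct, the homeodomain factor Cut, was at -5.47 over 2 segments in X:7676854-7678754 (the authors' deposited table, adjusted p = 6.63e-20). Tlk, Tousled-like kinase, stood at -4.99 and pum at -4.94 in the authors' deposited table. Pumilio, the product of pum, is a translational repressor with roles in neuronal excitability, and its listed segment lay at 3R:9066343-9067577. Neither Tlk nor pum was lower in nFne early embryos, where the authors' deposited table gave folds of 0.26 and 0.15 that did not pass.

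Further genes of the 12 were Dora at -4.62, bol at -4.34 and Imp at -4.17 in the authors' deposited table, each past the threshold. Dora (the fly homolog of ZSWIM8, which in mammals acts in target-directed microRNA decay) and Imp (an IGF2 mRNA-binding protein family member that sets temporal identity in neural progenitors) are X-linked. bol encodes Boule, an RNA-binding protein of the DAZ family. Hipk, a homeodomain-interacting protein kinase, had a fold of -4.12 and rin, the fly G3BP homolog Rasputin, had one of -4.01 in the authors' deposited table. The value of rin rests on a mean normalised count of 3.63, the lowest of any gene past the threshold.

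chic, the gene of profilin, a protein that binds actin monomers, was the gene with the lowest fold in nFne embryos. Its segment at 2L:5972115-5972899 (minus strand, 785 bases) had a log2 fold of -4.22 in elav-nFne early embryos (adjusted p = 2.03e-84) and -3.15 in nFne early embryos (adjusted p = 1.23e-21) in the authors' deposited tables. Late embryos gave chic -4.03 in elav-nFne mutants in the authors' deposited table. In experiment 1 chic was at -0.83 for the same segment in elav early embryos, and at -0.90 in elav-fne early embryos for an entry made of other segments, in the authors' deposited tables. chic was thus far below 0 in both mutants of experiment 2 and close to the listing threshold of -0.75 in those of experiment 1.

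The other genes past 0.05 in nFne early embryos were fne, Sxl, CG7556, CG30411, CG32195 and HIP-R. CG7556 had folds of -2.28 in elav-nFne and -1.36 in nFne early embryos in the authors' deposited tables. CG30411 had folds of -1.53 and CG32195 of -1.25 in elav-nFne early embryos, against -1.38 and -0.61 in nFne early embryos, in the authors' deposited tables. Sxl, the RNA-binding master regulator of sex determination, differed in sign, with -3.94 in elav-nFne early embryos (adjusted p = 2.68e-16) and 0.75 in nFne early embryos (adjusted p = 0.0339) in the authors' deposited tables. The Sxl entry had a mean normalised count of 14.6 in the elav-nFne comparison. HIP-R had a fold of -0.25 that did not pass in elav-nFne embryos and one of 0.03 in nFne embryos that did (adjusted p = 4.30e-19) in the authors' deposited tables. That fold is 102% of the wild-type level of use. So small a fold and so low a p are hard to reconcile, and HIP-R is not read as increased.

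Grouped by function, RNA-binding proteins and RNA regulators had the lowest median of the 3 largest lists. The lists are counted over members, and the members were preselected on the elav mutant, so a list is described beside the same values over all 174 genes (81.6% lower, median -1.84) and nothing particular to it is drawn. The lists do not hold every gene of a kind. Of the 77 genes in any list 90.9% were lower, against 74.2% of the 97 in none. Of 16 RNA regulators, 15 were lower, and their median log2 fold was -3.36 in the authors' deposited table. Beside pum, Imp, rin and Sxl these included Hrb27C, an hnRNP protein, at -3.70, and mei-P26, a TRIM-NHL translational regulator, at -3.67. sm, an hnRNP L homolog, was at -3.55 and brat, another TRIM-NHL repressor, at -0.66 in the authors' deposited table. gw, which encodes the silencing cofactor GW182, did not pass with a fold of -1.73 on a mean normalised count of 6.62 (the authors' deposited table, adjusted p = 0.271).

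Among 16 transcription factors and chromatin regulators, 15 were lower in elav-nFne early embryos, with a median of -2.26 in the authors' deposited table. After hth and ct came the Hox gene abd-A at -3.91, at 3R:16807214-16807626, and cic, which encodes the repressor Capicua, at -3.82 in the authors' deposited table. The ecdysone receptor gene EcR was at -3.01 and the neural fate regulator pros at -2.66 in the authors' deposited table. crol was the one member of this list that did not pass, at -1.26 (the authors' deposited table, adjusted p = 0.0632). All 3 of the Hox genes and cofactors in the set were lower: hth, abd-A and Abd-B, the last at -2.12 in the authors' deposited table.

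Genes of axon guidance and neuronal adhesion were closer to the set as a whole. Of 8, 6 were lower and the median was -1.81 in the authors' deposited table. After comm came Nrg, the neuroglian adhesion molecule, at -2.98, and caps, a leucine-rich repeat adhesion protein, at -1.92 in the authors' deposited table. Dscam1, which gives neurites their self-recognition code, was at -1.90 in the authors' deposited table. CadN (N-cadherin) had a fold of -1.72 and Sema1a, a transmembrane semaphorin, one of -1.48, and neither passed (the authors' deposited table, adjusted p = 0.0794 and 0.165). Both had high counts in the authors' deposited table, 477 for CadN and 258 for Sema1a.

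Of 6 genes of synaptic vesicles and transmitters, 5 were lower, with a median of -1.78 in the authors' deposited table. Syt1, synaptotagmin 1, the calcium sensor of transmitter release, was far below the others of its list at -3.85 (the authors' deposited table, adjusted p = 3.69e-46). dlg1, Cirl and CASK lay close together at -1.83, -1.78 and -1.78, and Ace, acetylcholinesterase, was at -1.05, in the authors' deposited table. Sap47 did not pass at -1.13 (the authors' deposited table, adjusted p = 0.132). All 3 genes of the ion channel list were lower in the authors' deposited table. Shal, a voltage-gated potassium channel, was at -3.28, slo, the calcium-activated potassium channel, at -2.31, and Hk, a Shaker channel beta subunit, at -1.66. Channel genes outside the list, such as pHCl-1 and GluClalpha, are not counted here.

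All 14 genes of the kinase, GTPase and signalling list were lower in elav-nFne early embryos, with a median of -1.81 in the authors' deposited table. Other genes of this kind lie outside the list, among them Hipk and Tlk, which passed, and Mkk4, put and Rgk1, which did not. The Nemo kinase gene nmo stood at -3.20, the G protein subunit gene Galphao at -3.17, the GSK3 kinase gene sgg at -2.43 and the calmodulin gene Cam at -2.36 in the authors' deposited table. The same list holds the smallest fold past the threshold in the whole set, that of the calcineurin subunit gene CanA-14F at -0.52 (the authors' deposited table, adjusted p = 2.95e-12), or 69.7% of the wild-type level of use. All 7 genes of the cytoskeletal and transport list were lower too, with a median of -1.90 in the authors' deposited table. Outside this list Atat passed, while Eb1 and BicD did not. After chic the 7 listed genes were led by Dys (dystrophin) at -3.20 and the kinesin gene Khc-73 at -2.72 in the authors' deposited table, and Tm1 (tropomyosin 1) was at -0.97.

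Of 5 metabolic and proton pump genes, 3 were lower in the authors' deposited table, with a median of -1.33 that is above that of the set. Ldh, lactate dehydrogenase, was at -3.86 (the authors' deposited table, adjusted p = 2.07e-19) at 3L:6259105-6259491, a segment of 387 bases. nrv3, a sodium pump beta subunit, was at -2.03 and the aldolase gene Ald1 at -1.32 in the authors' deposited table. The proton pump gene Vha26 was at -1.18 and ATPCL, ATP citrate lyase, at -1.33 and neither passed (the authors' deposited table, adjusted p = 0.0715 and 0.877). ATPCL rests on a mean normalised count of 1.78 in the authors' deposited table. Of 16 genes known from the literature for neuronal 3′ UTR extension, 11 are in the set and all 11 were lower, with a median of -3.66 in the authors' deposited table. Those genes are known targets of ELAV, so this is not independent evidence.

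**Figure D2:**
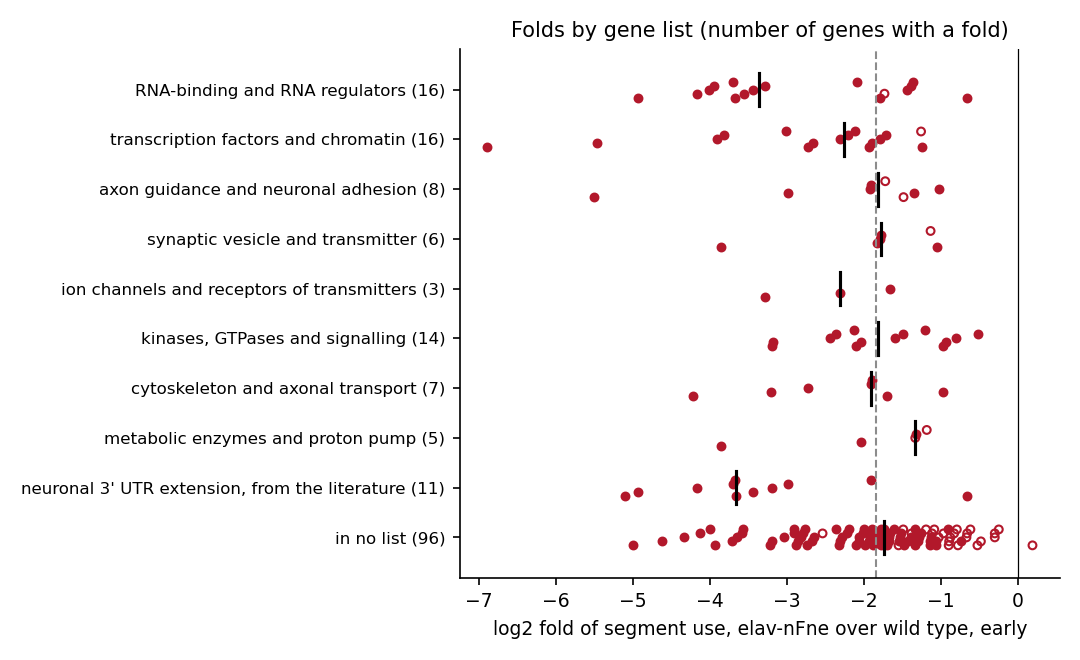
Log2 fold of segment use in elav-nFne over wild-type early embryos (horizontal axis) by gene list and for genes in no list (rows, with the number that have a fold). The ELAV family (2 genes, median -4.38) and the Hox genes and cofactors (3 genes, median -3.91) have no row of their own. Each point is 1 gene, filled where it passed the authors' adjusted p of 0.05 and open where it did not; black bars are list medians and the dashed line is the median of all 173 genes, -1.84. RNA regulators have a median of -3.36 and metabolic genes one of -1.33.

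The 32 genes that did not pass were not all near 0. Of these, 15 had a fold of -1 or lower in the authors' deposited table. RhoGAP92B was the lowest of them at -2.54 with an adjusted p of 0.211 on a mean normalised count of 12.6 in the authors' deposited table. Just inside the threshold stood CG42340 (adjusted p = 0.0438), pHCl-1 (0.0466) and Map205 (0.0480), and just outside it Eaf (0.0581), crol (0.0632) and Vha26 (0.0715), all in the authors' deposited table. Nubpl was the one gene with a fold above 0, at 0.19 (the authors' deposited table, adjusted p = 0.799). CG1504, at X:20302015-20303852, had no fold, with a mean normalised count of 0 in the authors' deposited tables of experiment 2, although it was listed at -2.12 in elav early embryos of experiment 1.

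Depth and length differed between the genes that passed and those that did not. The median of the mean normalised count was 94.6 for the 142 that passed and 47.0 for the 32 that did not in the authors' deposited table. The listed segments were also longer among those that passed, with a median of 1806.5 bases against 1063 bases. These lengths are summed over joined segments, and every entry of several segments is among those that passed. Such entries had a median of 2137 bases, against 1460 bases for entries of 1 segment. The length contrast was not drawn for entries of 1 segment alone. In 4 bins of count, low to high, 30 of 44, 35 of 43, 39 of 43 and 38 of 44 genes passed. Across genes the fold itself barely followed the count (Spearman rho = 0.03, n = 173 genes that share the same libraries). All 41 genes whose entry joins several segments passed, against 101 of 133 with 1 segment, and a minimum over several p-values is below 0.05 more readily than 1 p-value is.

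**Figure D3:**
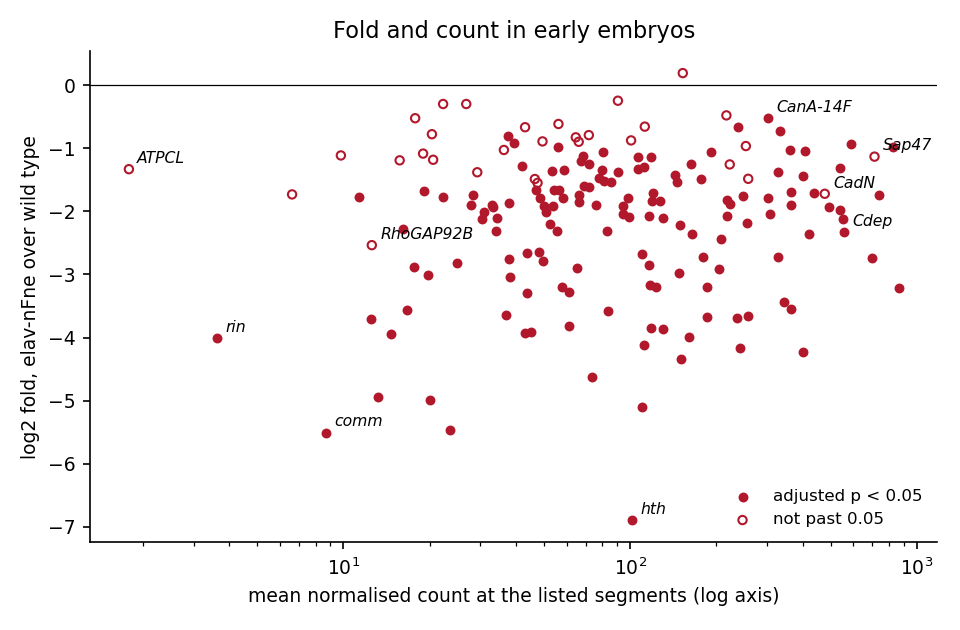
Log2 fold of segment use in elav-nFne over wild-type early embryos (vertical axis) against the mean normalised count at the listed segments (horizontal axis, log scale), for the 173 genes with a fold. Filled circles passed the authors' adjusted p of 0.05 and open circles did not. Low folds occur at every count, from rin at a count of 3.63 to hth at 101, and genes of high count such as Sap47 and CadN are among those that did not pass.

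The listed segments share their place in the transcript. All 174 lay within the annotated gene on its strand, and in 169 at least 90% of the bases were annotated 3′ UTR. The exceptions, named after their values were seen, were Cdep, Atat, Cbl, Vrp1 and CG44838. In the authors' annotation every listed segment had more 3′ UTR upstream of it, with a median of 1629.5 bases, and 130 of the 174 entries included the last segment of the gene. The median summed length was 1662 bases. The last 3′ UTR segments of 11534 genes with at least 2 segments had a median of 407 bases in the same annotation. That background takes 1 segment per gene, unsummed, and was not limited to genes with more 3′ UTR upstream. It is therefore not matched to the set in length or in segment code. Entries of 1 segment in the set had a median of 1460 bases. Of the 174 entries, 149 carried the authors' segment code TE, against 25.7% of those 11534 segments. The code is not defined in the sources used here.

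Neither length nor upstream 3′ UTR ordered the folds closely. Spearman's rho across the 173 genes was -0.19 with the segment length and -0.28 with the length of 3′ UTR upstream, as a description of genes measured in the same libraries. The 37 genes at -3 or lower had a median of 2827 bases of 3′ UTR upstream, against 1629.5 bases over all 174. mei-P26 has the longest listed segment past the threshold, 11011 bases at X:9178299-9189309, with a fold of -3.67 in the authors' deposited table. eEF1alpha1, the translation elongation factor gene, has the shortest, 242 bases at 2R:11895521-11895762, with a fold of -1.43 in the authors' deposited table.

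The genes were spread over the genome and were not confined to the X chromosome, where elav and fne lie. Of 42 X-linked genes 35 were lower, with a median of -1.84, in the authors' deposited table. On the autosomes, 33 of 38 were lower on 3R, 31 of 35 on 3L, 23 of 27 on 2R and 19 of 29 on 2L in the authors' deposited table. On chromosome 4, 1 of 3 was lower, PlexA, while gw and apolpp did not pass (PlexA and apolpp are named after their values were seen).

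Adult heads of wild type, a tissue rich in neurons, gave another readout of the same genes. The 174 genes had median levels of 20.04 and 20.7 TPM in the 2 head libraries, against 1.27 and 1.38 TPM over all 17753 listed genes. Of those 17753 genes, 8600 averaged under 1 TPM. Every member had a mean normalised count of at least 20.5 in the elav early comparison that chose the set. The background was not matched for expression, so nothing particular to the set is drawn from this contrast. Members that passed in elav-nFne embryos had medians of 20.04 and 21.1 TPM and those that did not 20.5 and 19.7 TPM, so the medians were close. Cam averaged 632 ± 21.8 TPM and eEF1alpha1 964 ± 15.2 TPM (SD, 2 libraries), while the abdominal Hox genes were low, at 0.0120 ± 0.00678 TPM for abd-A and 0.00613 ± 0.00394 TPM for Abd-B. In these heads the summed levels were 1278 and 1322 TPM for 10 neuron markers and 1348 and 1069 TPM for 7 glia markers. The 6 muscle markers summed to 1555 and 1799 TPM and the 5 photoreceptor markers to 10509 and 10705 TPM.

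Set beside elav mutants of experiment 1, elav-nFne early embryos had the lower fold at most genes. The listed segments are identical in both tables for all 174 genes. In the authors' deposited tables the median log2 fold was -1.84 in elav-nFne and -1.42 in elav early embryos at the 173 genes with both. The elav-nFne fold was lower for 134 genes and higher for 39, with a median difference of -0.45 in log2 (elav-nFne minus elav). It was lower by 1 or more for 32 and higher by 1 or more for 8. The experiments have their own wild-type libraries and were fitted separately by the authors, and the elav folds chose the set, so the differences are a description. Experiment and genotype cannot be told apart in them.

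Among the 8 genes past 0.05 with the largest shortfall against elav, hth had folds of -6.89 in elav-nFne and -3.42 in elav early embryos in the authors' deposited tables. chic, described above, followed with -4.22 in elav-nFne against -0.83 in elav (the authors' deposited tables). Dora had -4.62 in elav-nFne against -2.51 in elav, and bol -4.34 against -2.50 (the authors' deposited tables). Sxl had -3.94 in elav-nFne against -2.07 in elav, and comm -5.51 against -3.26 (the authors' deposited tables). CG16779 stood at -3.58 in elav-nFne and -1.61 in elav early embryos in the authors' deposited tables. zld, the gene of Zelda, which opens the early embryonic genome for transcription, was at -2.91 in elav-nFne early embryos and at -1.12 in elav early embryos in the authors' deposited tables.

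Other genes went the opposite way. stai, the gene of the microtubule regulator stathmin, had a fold of -1.90 in elav-nFne and -3.73 in elav early embryos in the authors' deposited tables. ct was at -5.47 against -5.79, Mkp3 at -1.20 against -1.58, Atat at -0.73 against -1.13 and brat at -0.66 against -0.99 (the authors' deposited tables, elav-nFne first). stai was the one gene past 0.05 whose fold was higher than in elav embryos by 1 or more. Over all 173 genes the differences ran from -3.47 at hth to 4.94 at CG43759.

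**Figure D4:**
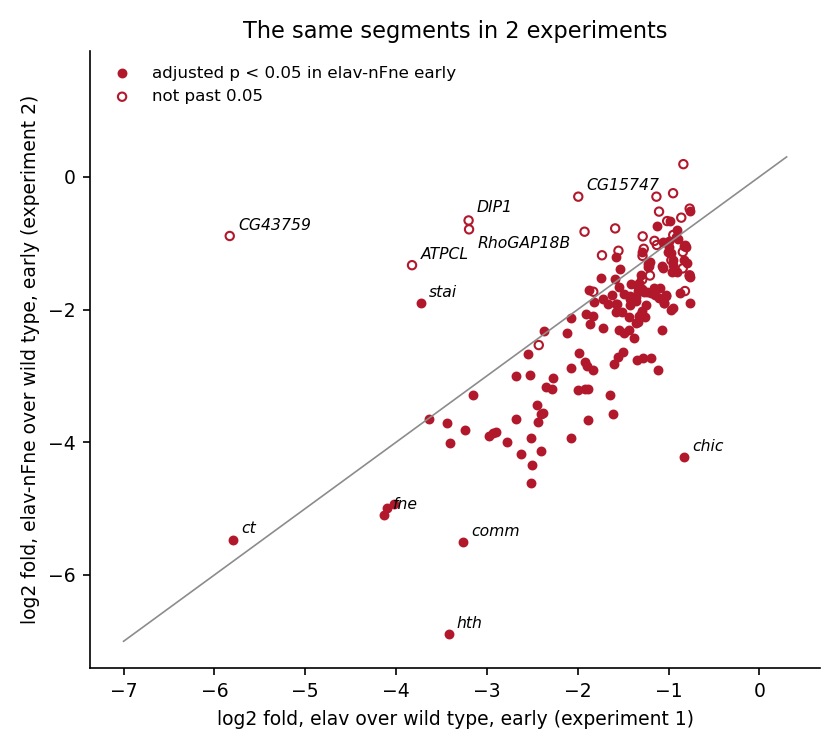
Log2 fold of segment use in elav-nFne over wild-type early embryos of experiment 2 (vertical axis) against that in elav over wild-type early embryos of experiment 1 (horizontal axis), for 173 genes with identical segments in both. Filled circles passed the authors' adjusted p of 0.05 in elav-nFne embryos, open circles did not, and the line marks equal folds. Most points lie below the line, hth and chic far below it, and CG43759, DIP1, RhoGAP18B and ATPCL far above it.

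Of the 8 genes higher by 1 or more, stai passed in elav-nFne embryos and 7 did not. By chromosome, 5 of the 8 are X-linked and 3 autosomal (stai, ATPCL and Nubpl). CG43759 had a fold of -0.89 in elav-nFne and -5.83 in elav early embryos in the authors' deposited tables. RhoGAP18B was at -0.79 against -3.20, DIP1 at -0.66 against -3.20, CG32647 at -0.83 against -1.92 and CG15747 at -0.30 against -1.99 (the authors' deposited tables, elav-nFne first). ATPCL was at -1.33 against -3.82 and Nubpl at 0.19 against -0.84, in the same order (the authors' deposited tables). The 5 X-linked genes had mean normalised counts between 22.3 and 112 in the elav-nFne table. With CG1504, HIP-R and Pp2B-14D these 5 make up the 8 X-linked members that are absent from both the elav-fne and the elav-fne-rbp9 early lists of experiment 1, a grouping made after those values were seen. Of these 8 genes 1 was lower in elav-nFne early embryos, Pp2B-14D at -0.80, against 35 of all 42 X-linked members and 142 of all 174 (81.6%). Over the 7 with a fold in both the median was -0.79 in elav-nFne against -1.99 in elav embryos (the authors' deposited tables). As 5 of the 8 were named for a higher fold in elav-nFne than in elav embryos, that contrast is partly fixed by the choice.

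The elav-fne double mutant of experiment 1, labelled as mutated in both genes, listed 148 of the 174 genes, that is 85.1% of the set and 63.0% of its own 235 genes. Of the 142 genes that passed in elav-nFne embryos 131 were listed there, and of the 32 that did not pass 17 were. The listed segments were identical in both tables for 127 of the 148 genes, and slo, chic and Sxl are among those that differ. At the 148 genes the median fold was -1.90 in elav-nFne and -2.30 in elav-fne early embryos in the authors' deposited tables. The elav-nFne fold was higher (nearer 0) for 107 genes and lower for 41, with a median difference of 0.29 in log2. At 31 genes it was higher by 1 or more, as at slo, with -2.31 in elav-nFne against -7.12 in elav-fne embryos, and at Dora, with -4.62 against -9.19 (the authors' deposited tables). The fold was lower by 1 or more at 1 gene, chic. hth, by contrast with Dora, had close folds of -6.89 and -7.55, Ldh -3.86 and -3.84, and Tlk -4.99 and -4.99, elav-nFne first (the authors' deposited tables). The 26 genes not listed there had a median of -1.19 in elav-nFne embryos, with comm lowest at -5.51. Every fold in the elav-fne table is at or below -0.75, and elav-nFne folds have no such cut. That selection favours lower elav-fne folds, and experiment and genotype cannot be told apart. The 2 mutants are therefore not ranked.

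Of the 174 genes, 17 were also listed in the fne single mutant of experiment 1 and 15 of these passed in elav-nFne early embryos, against 142 of all 174 (81.6%). The exceptions were Vha26 and CdGAPr, the second named after its values were seen. The entries of fne, Cirl, cpo, 14-3-3zeta, CG30116, sm and Pde1c were made of other segments in the fne table. CG7556 had folds of -2.28 in elav-nFne, -1.36 in nFne and -2.12 in fne early embryos in the authors' deposited tables. CG30411 had -1.53 in elav-nFne, -1.38 in nFne and -1.72 in fne early embryos (the authors' deposited tables). Ldh was at -3.86 in elav-nFne, -0.23 in nFne and -2.06 in fne early embryos in the authors' deposited tables. CG7556, CG30411 and fne were thus past 0.05 in elav-nFne and nFne embryos and listed in the fne mutant. Ldh passed in elav-nFne embryos and was listed in the fne mutant. The gene fne, counted among the 15, is itself named in the labels of these mutants. At its entry a lesion and a change in segment use cannot be told apart.

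In late elav-nFne embryos the same set was lower with smaller folds. The median fold in the authors' deposited tables was -1.84 at the early stage and -1.43 at the late stage, and 142 genes were lower early against 156 late (89.7%). At 138 of 173 genes the early fold was the lower one, with a median difference of -0.36 in log2 (early minus late). The order of the genes was similar (Spearman rho = 0.78, n = 173 genes), and early and late share no library but the same selected set. nFne late embryos, for their part, had a median fold of -0.37 at the same genes in the authors' deposited table, with 25 lower (14.4%) and 1 higher (0.575%). The 1 higher gene was HIP-R, at a fold of only 0.02. Both elav-nFne stages passed for 137 genes, early alone for 5, late alone for 19 and neither for 13. The 5 lower early alone were br, caps, Cph, kmr and CG32195, of which br, Cph and kmr are named after their values were seen. A p past 0.05 at 1 stage alone does not show that the stages differ, and that difference was not tested.

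Among the genes with a much lower fold early were Dora, at -4.62 early and -2.05 late, and fne, at -5.10 early and -3.07 late (the authors' deposited tables). hth was at -6.89 early and -4.82 late, nmo at -3.20 early and -1.32 late, mei-P26 at -3.67 early and -1.79 late, and zld at -2.91 early and -1.07 late (the authors' deposited tables). A few went the other way. tai, the gene of the steroid receptor coactivator Taiman, was at -3.57 early and -5.59 late (the authors' deposited tables). Tm1 was at -0.97 early and -2.24 late, Srrm234 at -3.71 early and -4.76 late, and Cka, a scaffold of the STRIPAK phosphatase complex, at -3.93 early and -4.83 late (the authors' deposited tables). RhoGAP92B, not past early at -2.54, was at -3.88 late with an adjusted p of 2.37e-07 in the authors' deposited table. Folds were close at both stages for elav, at -3.66 early and -3.48 late, and for Ldh, at -3.86 early and -3.81 late (the authors' deposited tables).

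**Figure D5:**
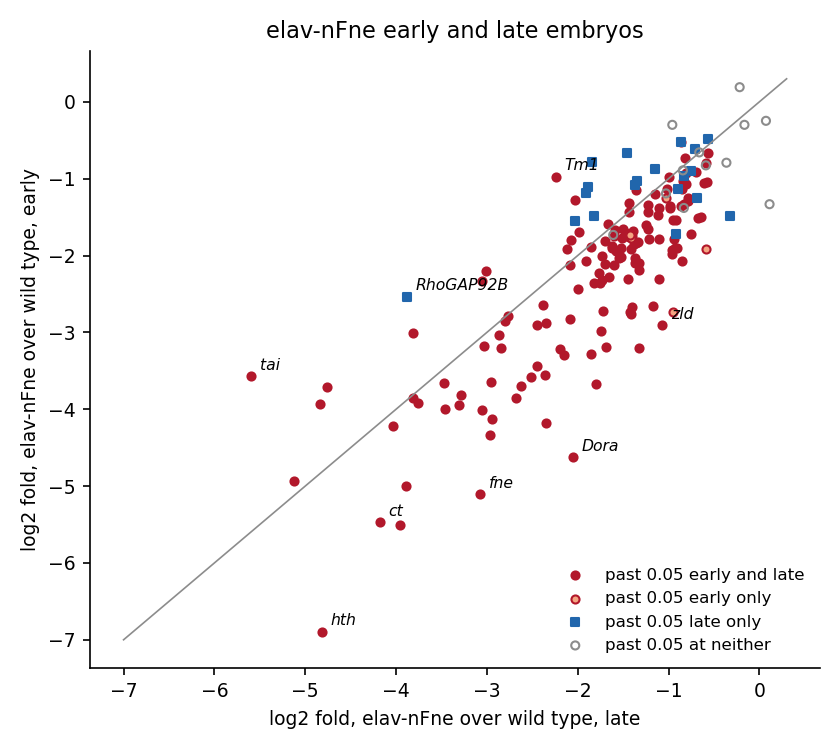
Log2 fold of segment use in elav-nFne over wild-type embryos at 14-16 h (vertical axis) against the fold at 18-22 h (horizontal axis), for 173 genes. Filled red circles passed the authors' adjusted p of 0.05 at both stages, pale circles early alone, blue squares late alone and open grey circles at neither, and the line marks equal folds. hth, Dora and fne lie below the line, tai and Tm1 above it.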

How the data were processed

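Stranded poly(A) libraries of embryos were compared by the authors, and the files hold their comparisons. The log2 fold of a segment's relative use (mutant divided by wild type, weighted over a gene's segments), the adjusted p-value (the smallest over its segments) and the mean normalised count, a signal that averages the libraries of a comparison, are as the authors deposited them, per the file headers. Neither tool nor settings are named in the labels or headers. How a fold is weighted over several segments is not stated either, which bears on 41 entries. Tables of experiment 1 list only decreases, and a test on their rows found every adjusted p below 0.0001 and every log2 fold at or below -0.75. Head expression is in TPM, as deposited by the authors. Segment coordinates are dm6, per the submitters' processing notes, and the authors' annotation was written with rtracklayer 1.40.5, per the file header.

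No test was recomputed, since no values per library were used. Medians, quartiles, counts and Spearman's rho were computed from the deposited values with Python 3.11.15, numpy 2.4.6 and pandas 2.3.3. The counts were tested on simulated data and the median on a small made-up example. Quartiles and Spearman's rho were not tested in this way. A gene was called lower or higher at an authors' adjusted p under 0.05. Positions were looked up in Ensembl release 115 (BDGP6.54), whose genes held all 174 entries on the same strand; all 174 symbols matched and 10 differ from the older names in the files. Pseudocounts of 1 and 0.1 TPM were used for head expression.

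Members, gene lists and the rule for named genes were chosen with earlier results of these data known. The rule names the family, the 12 lowest and 5 smallest folds past 0.05, genes at or above 0 or with no fold, those beside the threshold, the 8 lowest elav folds not past 0.05, the largest differences to elav and to late embryos, genes past 0.05 in nFne embryos, the 4 lowest of each list, and the extremes of length and head level. Ace, EcR, pros, gw, CadN, Sema1a and Sap47 were also named after their values were seen. No sequence is shown, as no genome sequence was used here.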

Additional observations from a re-analysis of the deposited data

How the results depend on the processing

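The number of genes lower in elav-nFne early embryos was 142 of 174 at an adjusted p of 0.05, 149 at 0.1, 130 at 0.01 and 117 at 0.001. It was 134 with a log2 fold of -1 or lower as well, and 101 of 133 among entries with 1 segment. In alternatives chosen after seeing the data it was 131 of 155 genes with a mean count of at least 20, 88.1% of 118 with at least 50, and 136 of 167 without the genes past 0.05 in nFne early embryos. The median fold of -1.84 lay between -2.13 (the mean instead) and -1.74 (1 segment) under its alternatives. The difference to elav early embryos lay between -0.56 and -0.42, and that to late embryos between -0.46 and -0.27. The median difference to elav-fne early embryos was 0.29 but the mean was 0.73. Entries with very low fitted use there, such as Sxl at -18.27, pull that mean. Of 76 named genes, the call was lost for 5 at 0.01 and for 9 at 0.001, and 3 more passed at 0.1 (Eaf, crol and Vha26). The head difference of genes that passed minus those that did not was 0.03 on the log2(TPM + 1) scale, with -0.03 and 0.10 in the 2 libraries, and 0.04 and 0.07 under its alternatives.

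No paired analysis was possible because the files used here hold comparisons and no values per library, although some titles share a replicate letter. For the same reason leaving out a replicate was not run. The poly(A) signal and T content alternatives were not run, as no genome sequence was used. Low counts limit rin, comm, ATPCL and gw most, and 1 gene, CG1504, had no count.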
